A study of Citrus maxima and Citrus sinensis with 8 samples.

Results

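Iron, zinc and copper serve as cofactors of many root enzymes, and each becomes toxic when it is free in the cell. Genes for their homeostasis were taken from the deposited tables by the wording of their descriptions, namely zinc, copper, iron and other metal transporters, copper chaperones, heavy metal proteins, metal tolerance proteins, metallothioneins, ferric reductases, nicotianamine synthases and yellow stripe transporters. Of 30151 genes, 73 matched. Cs6g09440 and XLOC_029822 were left out by the rule, and no description held the word ferritin. Descriptions were given for 43.0% of genes, so members can be missed.

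Plants obtain zinc and much of their iron through ZIP proteins (zinc transporters), which carry divalent metals into the cytosol, and copper through COPT proteins (copper transporters). At the root surface of dicots, ferric reduction oxidases (FRO) reduce iron or copper before uptake. Inside the plant, nicotianamine and citrate keep metals soluble for transport, yellow stripe-like proteins carry metal-nicotianamine, and metallothioneins, metal tolerance proteins and heavy metal ATPases bind metals or move them out of the cytosol. In *Arabidopsis*, shortage of zinc raises several ZIP and nicotianamine synthase genes through bZIP factors, shortage of copper raises COPT and FRO genes through SPL7, and shortage of iron raises FRO2 through FIT.

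Seedlings of *C. sinensis* 'Xuegan', labelled Al-tolerant, and *C. grandis* 'Shatian pummelo', labelled Al-intolerant and listed in the labels as *Citrus maxima*, were given nutrient solution with 0 mM (control) or 1 mM AlCl3 (+Al) for 18 weeks, in sand and at the same low pH in both treatments. Each library held RNA from root tips, here called roots, of 5 seedlings mixed together, with 2 libraries in each of the 4 groups, named below as control replicates 1 and 2 and +Al replicates 1 and 2. A p therefore measures the spread between mixtures of seedlings, not between single plants. Levels are FPKM, sequenced fragments scaled for transcript length and for the mapped reads of the library, always given for replicates 1 and 2 in that order.

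The FPKM of a library summed to between 713378 and 859570.4, and its depth relative to *C. sinensis* control replicate 1, read from the steps of low values, lay between 0.693 and 1.00. The lowest sum and depth were both those of *C. grandis* +Al replicate 1, whose genes had a median log2 difference of -0.38 from +Al replicate 2. The files hold no read counts, so counting error was not computed. The *C. sinensis* genome served as reference for the reads of both species, so levels of the species are given side by side and only responses were compared. Root markers were present, with 9 of 11 genes at a mean of at least 1 FPKM, among them 3 Casparian strip genes. Of 33 genes of green tissue, 17 reached the same mean. They summed to 167 and 172 FPKM in control and 131 and 127 in +Al *C. sinensis* roots, below the root genes. In *C. grandis* they summed to 250 and 223 against 230 and 263, above the root genes in every library. The lists differ in length, so their sums do not measure tissue content. The 11 root genes summed to 188 and 187 FPKM in control and 210.0 and 207 in +Al *C. sinensis* roots, and to 226 and 206 against 158 and 208 in *C. grandis*, but single markers moved with Al. In *C. sinensis* the Casparian strip gene Cs6g14190 was at 15.7 and 16.3 against 30.7 and 32.6 FPKM, Cs8g14760 at 14.0 and 13.9 against 32.2 and 32.3, and XLOC_018592 at 20.2 and 18.4 against 10.3 and 9.00. In *C. grandis* the scarecrow-like gene Cs1g24030 was at 34.7 and 34.5 against 6.33 and 8.84 FPKM. Genes of dividing cells, 7 in all, summed to 862 and 817 FPKM in control and 1232 and 1245 in +Al *C. sinensis* roots, and to 666 and 633 against 666 and 564 in *C. grandis*. The part of these root and dividing cell genes in the results below was not tested.

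To learn which metal genes responded to Al, +Al was compared with control in each species by limma on log2(FPKM + 0.1), the scale of every fold change below. The test took in every gene whose mean reached 1 FPKM in control or +Al. The words rose and fell are kept for an adjusted p (Benjamini-Hochberg, all tested genes) of at most 0.05 together with a log2 fold change of 1 or more in size. In *C. sinensis*, 17 members fell and 2 rose among 64 tested, or 29.7%, where 8.53% of all 19152 genes tested were called. By direction, 4.06% of all genes fell and 4.46% rose. In *C. grandis*, 14 members fell and 5 rose among 61 tested, or 31.1%, where 12.5% of all 18677 genes tested were called, 7.25% lower and 5.20% higher. The members tested had a median log2 fold change of -0.49 in *C. sinensis*, against 0.00 for all genes, and of -0.12 in *C. grandis*, against -0.01. Control and +Al libraries did not overlap for 53 of the 64 members in *C. sinensis*, where 70.8% of all genes did not, and for 39 of the 61 in *C. grandis*, where 53.4% did not. In bulk roots, a lower level in each cell and fewer cells of the expressing type cannot be told apart.

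A total of 10 members were called in both species, 9 lower and 1 higher. The 9 made up 52.9% of the members that fell in *C. sinensis* and 64.3% of those that fell in *C. grandis*. Among all genes, 267 fell in both, out of 778 that fell in *C. sinensis* and 1354 that fell in *C. grandis*. No member was called in opposite directions. Of the 17671 genes tested in both species, 1.51% fell in both, 0.690% rose in both and 0.905% were called in opposite directions. These 9 genes were 3 zinc transporters, 3 copper transporters, both genes described as ferric reduction oxidase 2 and the nicotianamine synthase with the highest level. The gene higher in both was FRD3b. The filter on low values was passed through a single group by 8 members in *C. sinensis*, of which 7 were called, and by 5 in *C. grandis*, all of them called, so these counts hold genes that could hardly have been listed without a difference. Among the 9 shared falls, Cs2g11620, Cs8g19450 and Cs9g19360 passed it that way in both species, and Cs8g19460 in *C. sinensis*. The matching share of all genes is not given here. With 1 library left out, 13 of the 19 calls of *C. sinensis* and 10 of the 19 of *C. grandis* stood in every case. In *C. grandis* 2 members rose without control replicate 1 or control replicate 2, and 9 fell without control replicate 1. In *C. sinensis* 1 member rose without control replicate 1, control replicate 2 or +Al replicate 1, and 4 rose without +Al replicate 2.

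**Figure D1:**
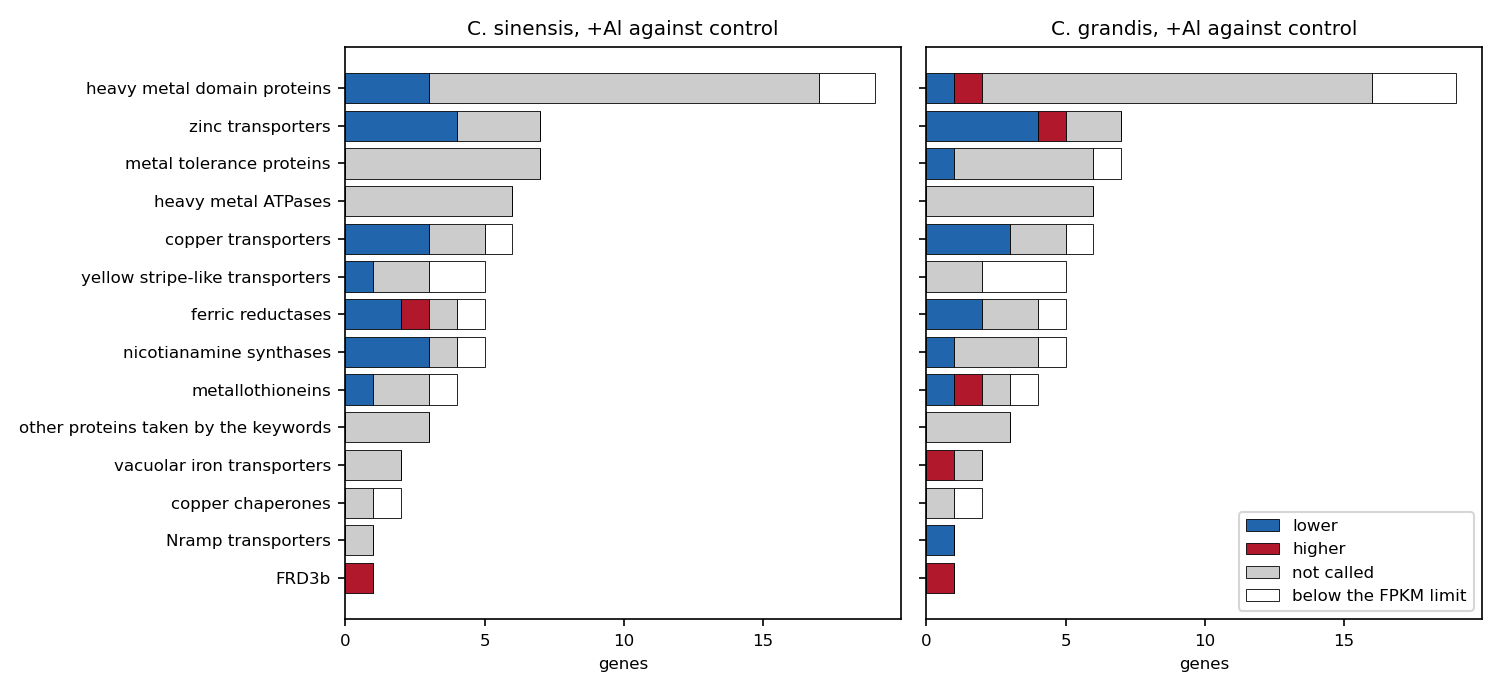
Members by group of function, in *C. sinensis* and *C. grandis*. Bars count genes that fell, rose, were not called or had a mean below 1 FPKM in both control and +Al roots. In each species 4 of 7 zinc transporters, 3 of 6 copper transporters and 2 of 5 ferric reductases fell. So did 3 of 5 nicotianamine synthases of *C. sinensis* against 1 of 5 for *C. grandis*, while no gene described as heavy metal ATPase was called. One of the 4 zinc transporters in *C. grandis*, orange1.1t05711, rests on a single library.

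**Figure D2:**
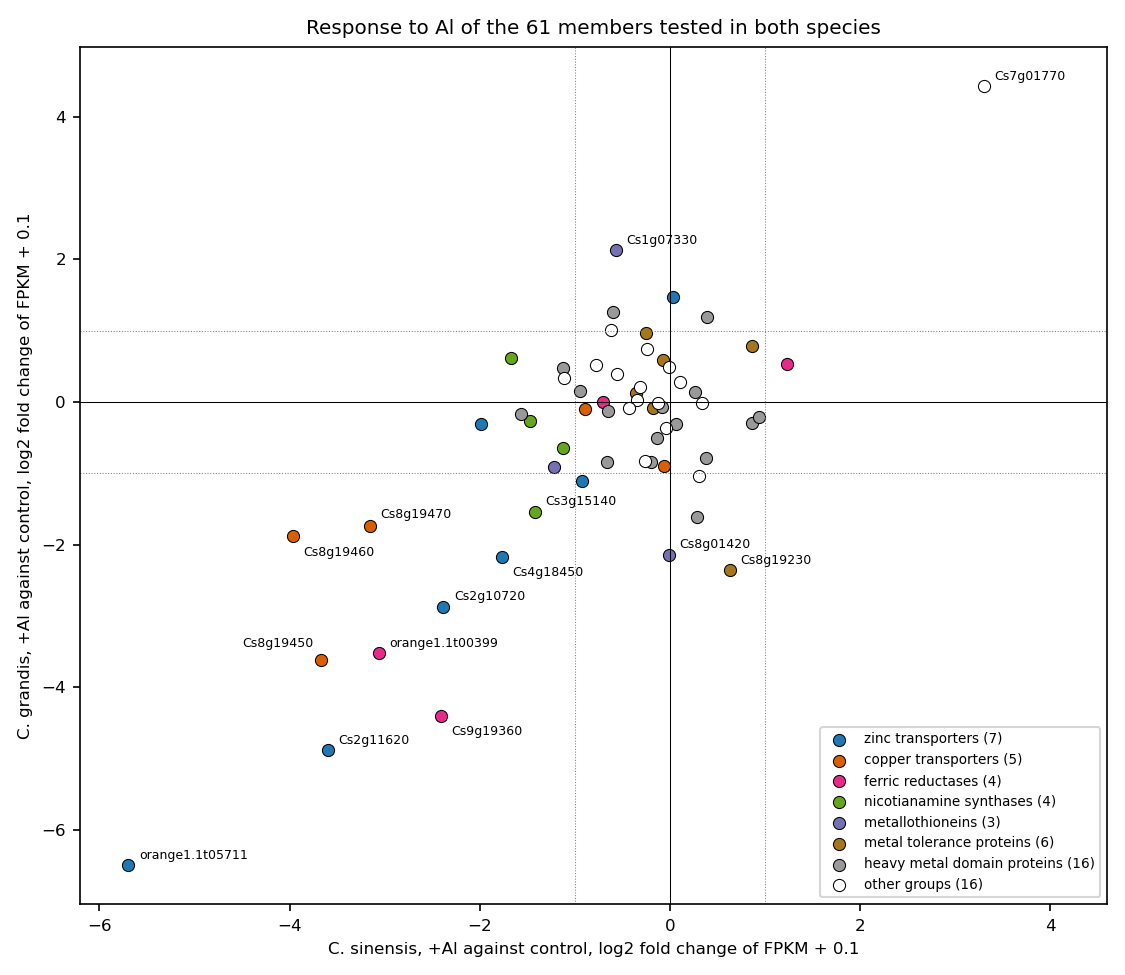
Response to Al of the 61 members tested in both species, as log2 fold change of FPKM + 0.1 in *C. sinensis* (x) and *C. grandis* (y), with dotted lines at -1 and 1. Labels mark members called in both species and 4 others named in the text. The 9 members called lower in both lie at the lower left and FRD3b (Cs7g01770) at the upper right, while orange1.1t05711, farthest to the lower left, rests on single libraries.

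The ZIP family had 7 zinc transporters, of which 4 fell in each species, 3 of them shared, and 1 rose in *C. grandis*. Zinc transporter 10 (Cs2g10720), of a family that imports divalent metals, stood at 139 and 134 FPKM in control and 24.6 and 27.7 FPKM in +Al *C. sinensis* roots (log2 fold change -2.38, standard error 0.077, adjusted p = 0.0001). In *C. grandis* it stood at 40.2 and 47.6 FPKM in control and 4.64 and 7.51 FPKM in +Al roots (log2 fold change -2.87, standard error 0.3, adjusted p = 1.6e-09). All control libraries of a species lay well above its +Al libraries. Zinc transporter 4 (Cs4g18450), whose *Arabidopsis* counterpart is induced when zinc is short, went from 42.6 and 48.3 to 12.8 and 13.7 FPKM in *C. sinensis* (log2 fold change -1.77, standard error 0.091, adjusted p = 0.00024) and from 98.2 and 96.6 to 19.7 and 23.5 FPKM in *C. grandis* (log2 fold change -2.17, standard error 0.26, adjusted p = 1.7e-08). Zinc transporter 1-like (Cs2g11620) had larger fold changes than both, but passed the filter on low values through control alone in each species. It went from 5.35 and 7.26 to 0.406 and 0.444 FPKM in *C. sinensis* (log2 fold change -3.59, standard error 0.28, adjusted p = 0.00066) and from 12.1 and 8.24 to 0.282 and 0.207 FPKM in *C. grandis* (log2 fold change -4.88, standard error 0.52, adjusted p = 1.7e-09). These 3 calls held in both species whichever library was left out, and no difference between the species was called for them (log2 differences of -0.49, -0.41 and -1.29 as *C. grandis* minus *C. sinensis*, adjusted p = 0.33, 0.2 and 0.091).

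The genes described as zinc transporter 5 parted from this pattern and from each other. Cs6g11460 fell in *C. sinensis*, from 5.24 and 4.48 to 0.975 and 1.35 FPKM (log2 fold change -1.99, standard error 0.25, adjusted p = 0.003), and was at 6.22 and 5.87 in control and 4.04 and 5.90 FPKM in +Al *C. grandis* roots, where the libraries overlapped. Cs2g11610 rose in *C. grandis*, from 7.23 and 5.78 to 14.8 and 22.1 FPKM (log2 fold change 1.47, standard error 0.32, adjusted p = 0.00074), and stood at 6.96 and 7.13 against 6.77 and 7.70 FPKM in *C. sinensis*. That rise was not called without control replicate 1, control replicate 2 or +Al replicate 2 (log2 fold changes of 1.63, 1.31 and 1.18). Cs6g11470 was not called in either species and in *C. sinensis* missed by the fold limit alone (log2 fold change -0.93, standard error 0.14, adjusted p = 0.006), at 7.96 and 7.52 against 4.36 and 3.72 FPKM in *C. sinensis* and 3.45 and 2.91 against 0.623 and 3.09 FPKM in *C. grandis*. The last of the 7, orange1.1t05711, was listed at 268 FPKM in *C. sinensis* control replicate 1, at 811 FPKM in *C. grandis* control replicate 1 and at 0 in the other 6 libraries. It passed the test in *C. grandis* (adjusted p = 0.0039) on the strength of that control replicate 1 alone, had a log2 fold change of -6.49 or, without control replicate 2, -12.99, did not pass without +Al replicate 1 or 2 (adjusted p = 0.48 and 0.49), and is counted among the falls above only because the limits were applied as written.

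Of the 6 copper transporters, the same 3 fell in both species. These 3 genes are described as copper transporter 1-like, whose *Arabidopsis* counterpart brings copper into root cells. They have neighbouring identifiers (Cs8g19450, Cs8g19460 and Cs8g19470) and may share reads, so their separate values are uncertain. Cs8g19470, the highest of the 3, went from 43.03 and 41.1 to 5.46 and 3.93 FPKM in *C. sinensis* (log2 fold change -3.16, standard error 0.16, adjusted p = 0.00023) and from 12.1 and 7.86 to 2.88 and 2.82 FPKM in *C. grandis* (log2 fold change -1.74, standard error 0.36, adjusted p = 0.00049). Cs8g19460 went from 12.6 and 13.8 to 0.588 and 0.959 FPKM in *C. sinensis* (log2 fold change -3.96, standard error 0.25, adjusted p = 0.0004) and from 9.28 and 7.996 to 2.38 and 2.18 FPKM in *C. grandis* (log2 fold change -1.87, standard error 0.38, adjusted p = 0.00027). Control and +Al libraries were thus far apart in each species, and the falls of both genes were larger in *C. sinensis*, a difference tested further on. Cs8g19450, the lowest, went from 2.98 and 4.32 to 0.18 and 0.199 FPKM in *C. sinensis* (log2 fold change -3.67, standard error 0.39, adjusted p = 0.0018) and from 2.75 and 3.13 FPKM to 0.512 FPKM and a listed 0 in *C. grandis* (log2 fold change -3.62, standard error 0.79, adjusted p = 0.00078). It passed the filter on low values through control alone in both species, as did Cs8g19460 in *C. sinensis*. In *C. grandis* the call of Cs8g19460 was lost without control replicate 1 or 2 (-1.77 and -1.98) and that of Cs8g19470 without control replicate 1 or +Al replicate 1 or 2 (-1.43, -1.75 and -1.72). After rescaling by the median ratio, the call of Cs8g19450 in *C. grandis* was lost (-3.52, adjusted p = 0.063). The fall of Cs8g19450 in *C. grandis* was -4.92 without +Al replicate 1 and -2.31 without +Al replicate 2, the library listed at 0.

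None of the other copper transporters and no copper chaperone was called. Copper transporter 5-like (Cs4g06330), whose *Arabidopsis* counterpart releases copper from the vacuole and which had the highest level of the family, was at 59.97 and 54.8 FPKM in control and 32.2 and 29.8 FPKM in +Al *C. sinensis* roots, which passed by p but not by size (log2 fold change -0.89, standard error 0.077, adjusted p = 0.00093). In *C. grandis* its libraries overlapped, at 60.3 and 65.7 against 49.1 and 70.3 FPKM. The assembled copper transporter XLOC_015998 lay between 2.59 and 6.63 FPKM in all libraries and was not called. The copper chaperone of cytochrome c oxidase (XLOC_001636), which hands copper to mitochondrial respiration, was at 45.7 and 49.2 against 60.5 and 59.7 FPKM in *C. sinensis* (log2 fold change 0.34, standard error 0.063, adjusted p = 0.011) and at 47.7 and 37.1 against 41.6 and 41.8 FPKM in *C. grandis*. A chloroplast copper chaperone (orange1.1t02697) and the copper transporter Cs8g19430 stayed below the limit in both species.

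Ferric reductases of the FRO2 kind, which in *Arabidopsis* reduce iron at the root surface, fell in both species. Ferric reduction oxidase 2-like (orange1.1t00399) went from 19.7 and 21.0 to 2.16 and 2.55 FPKM in *C. sinensis* (log2 fold change -3.06, standard error 0.13, adjusted p = 0.00016) and from 11.99 and 13.7 to 1.15 and 0.918 FPKM in *C. grandis* (log2 fold change -3.52, standard error 0.4, adjusted p = 6.2e-09). Both calls held whichever library was left out. Ferric reduction oxidase 2 (Cs9g19360) went from 6.17 and 7.23 to 0.378 and 0.114 FPKM in *C. grandis* (log2 fold change -4.41, standard error 0.58, adjusted p = 2.2e-07). It passed the filter on low values through control alone in both species. In *C. sinensis* it was near the limit in control and went from 0.708 and 1.51 to 0.111 and 0.121 FPKM (log2 fold change -2.40, standard error 0.68, adjusted p = 0.043), a call lost without +Al replicate 1 or 2 (-2.37 and -2.44). The other reductases did not fall. Ferric reduction oxidase 7 (Cs3g01120), a chloroplast enzyme in *Arabidopsis*, rose in *C. sinensis* from 1.62 and 1.40 to 4.34 and 3.10 FPKM (log2 fold change 1.23, standard error 0.25, adjusted p = 0.015) and was at 5.66 and 5.49 against 6.16 and 10.6 FPKM in *C. grandis*. This rise was lost without control replicate 1, control replicate 2 or +Al replicate 1 (1.33, 1.14 and 1.00). Mitochondrial ferric reduction oxidase 8 (Cs5g06040) had log2 fold changes of -0.71 in *C. sinensis* (adjusted p = 0.018) and 0.00 in *C. grandis*, under the fold limit, and Cs8g17640 was listed at 0 in all 8 libraries.

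**Figure D3:**
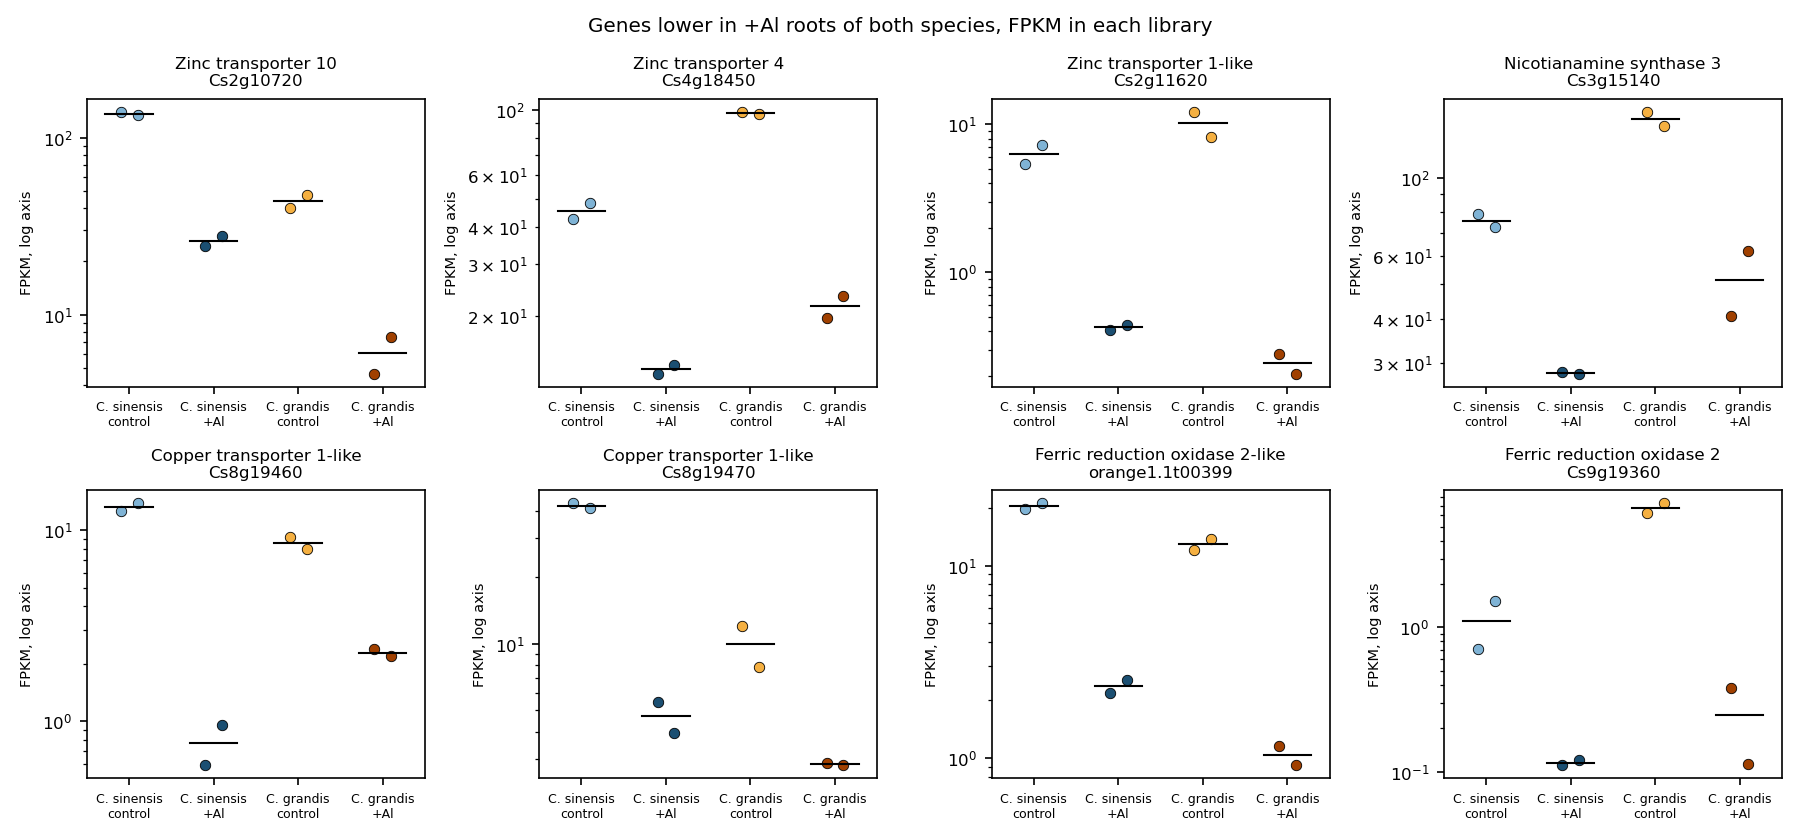
FPKM of 8 genes called lower in +Al roots of both species, on log axes that differ between panels. Points are libraries and lines are group means of 2 libraries. In all 8 panels both +Al libraries of a species lie below both of its control libraries, which the choice of genes by their call made likely. Among all genes tested, the libraries did not overlap for 70.8% in *C. sinensis* and 53.4% in *C. grandis*.

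Ferric reductase defective 3b (Cs7g01770) is a citrate carrier that in *Arabidopsis* loads citrate into the xylem, where it keeps iron soluble, and it had the largest fold rise of the members called higher. It went from 26.1 and 25.1 to 260.0 and 248 FPKM in *C. sinensis* (log2 fold change 3.31, standard error 0.056, adjusted p = 4.3e-05) and from 38.4 and 34.5 to 650.1 and 956 FPKM in *C. grandis* (log2 fold change 4.43, standard error 0.22, adjusted p = 1.3e-18). Vacuolar iron transporters store iron in the vacuole. Cs3g21230, described as homolog 4-like, rose in *C. grandis* from 13.9 and 19.2 to 30.3 and 35.6 FPKM (log2 fold change 1.01, standard error 0.29, adjusted p = 0.011) and was at 11.0 and 10.8 against 6.64 and 7.46 FPKM in *C. sinensis* (log2 fold change -0.62, standard error 0.11, adjusted p = 0.0099). Its rise lay just inside the fold limit and was lost without any 1 of the 4 *C. grandis* libraries (log2 fold changes of 0.77 to 1.24). The other (orange1.1t01989) was at 2.62 and 3.33 against 0.834 and 2.02 FPKM in *C. sinensis* and 5.92 and 6.73 against 8.73 and 7.37 FPKM in *C. grandis*, and was not called. The metal transporter Nramp6 (XLOC_020550), of a family that carries iron and manganese, fell in *C. grandis* from 13.5 and 10.5 to 4.18 and 7.91 FPKM (log2 fold change -1.03, standard error 0.34, adjusted p = 0.033) and was at 16.8 and 17.6 against 20.7 and 21.8 FPKM in *C. sinensis*. The fall was lost without control replicate 1, control replicate 2 or +Al replicate 1 (-0.85, -1.22 and -0.58).

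Nicotianamine synthases make the chelator nicotianamine from S-adenosylmethionine. Nicotianamine synthase 3 (Cs3g15140), the highest of the 5 by mean FPKM, fell in both species. It went from 78.9 and 72.3 to 28.3 and 28.02 FPKM in *C. sinensis* (log2 fold change -1.42, standard error 0.068, adjusted p = 0.0002) and from 153 and 139.6 to 40.8 and 62.05 FPKM in *C. grandis* (log2 fold change -1.54, standard error 0.24, adjusted p = 7.0e-06). The difference between these responses was -0.12 on the log2 scale (95% confidence interval -0.74 to 0.51). The 4 genes described as nicotianamine synthase 4 may share reads. In *C. sinensis* Cs4g03250 fell from 8.29 and 9.07 to 3.95 and 3.93 FPKM (log2 fold change -1.12, standard error 0.13, adjusted p = 0.0022) and Cs4g03300 from 1.82 and 1.57 to 0.61 and 0.49 FPKM (log2 fold change -1.47, standard error 0.36, adjusted p = 0.028), while Cs4g03270, at 4.46 and 4.38 against 0.725 and 2.33 FPKM, missed the limit (adjusted p = 0.052). In *C. grandis* these 3 were uneven between the +Al libraries, at 28.97 and 2.75 FPKM for Cs4g03250, and none was called. The call of Cs4g03300 in *C. sinensis* was lost without control replicate 1, control replicate 2 or +Al replicate 2 (-1.37, -1.57 and -1.33), and that of Cs4g03250 when all 8 libraries shared a spread (adjusted p = 0.47). Cs4g03280 was at 0.32 FPKM or less in every library.

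Of the yellow stripe-like genes, YELLOW STRIPE like 3 (Cs3g04600), which in *Arabidopsis* moves metal-nicotianamine in the vasculature, fell in *C. sinensis* from 4.34 and 4.13 to 0.608 and 1.32 FPKM (log2 fold change -2.11, standard error 0.38, adjusted p = 0.0097). It lay below the limit in *C. grandis*, at 1.04 and 0.75 against 1.16 and 0.339 FPKM, and its call was lost without *C. sinensis* control replicate 1 or 2 (-2.08 and -2.15). YELLOW STRIPE like 6 (Cs8g06640), the highest of the 5, was at 5.82 and 5.30 against 3.98 and 4.19 FPKM in *C. sinensis* and 10.8 and 10.3 against 8.49 and 11.6 FPKM in *C. grandis*, and was not called. YELLOW STRIPE like 1 (Cs5g01560) lay between 1.95 and 3.86 FPKM throughout, and both genes of the YSL7 kind (Cs7g14070 and Cs7g14080) did not exceed 0.0513 FPKM.

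Metallothioneins are small cysteine-rich proteins that bind copper and zinc, and they held most of the summed FPKM of the members. Together the 4 genes took 1.29 and 1.42% of all FPKM in control and 0.615 and 0.693% in +Al *C. sinensis* roots. In *C. grandis* control roots gave them 0.875 and 0.854%, and +Al roots 0.998 and 0.711%, so the libraries overlapped there. Cs8g18470 had the highest level of all members. It went from 8828 and 9485 to 3823 and 4059.7 FPKM in *C. sinensis* (log2 fold change -1.22, standard error 0.061, adjusted p = 0.00022) and from 6838 and 6534 to 3387 and 3711 FPKM in *C. grandis*, where the change passed by p and fell short of the fold limit (log2 fold change -0.91, standard error 0.13, adjusted p = 9.4e-07). Cs1g07330, also described as metallothionein-like, rose in *C. grandis* from 684 and 557 to 3734 and 1943 FPKM (log2 fold change 2.13, standard error 0.19, adjusted p = 3.5e-11). After rescaling by the median ratio, its limma adjusted p there was only 0.033 (log2 fold change 2.14). In *C. sinensis* it was not called, with 1647 and 2280.5 FPKM in control and 1107 and 1542 FPKM in +Al roots (log2 fold change -0.57, standard error 0.21, adjusted p = 0.084). Both +Al libraries lay below both control libraries there, the opposite order to *C. grandis*. The +Al replicates of *C. grandis* differed widely from each other, and the log2 fold change was 1.66 without +Al replicate 1 and 2.60 without +Al replicate 2, each still called. Cs8g01420 was a weakly expressed gene that fell in *C. grandis* from 2.66 and 2.62 to 0.363 and 0.733 FPKM (log2 fold change -2.14, standard error 0.61, adjusted p = 0.011), a call lost without +Al replicate 1 (-1.72), and stayed between 2.42 and 3.01 FPKM in *C. sinensis*. Cs8g01450 was listed at 0 in all libraries.

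**Figure D4:**
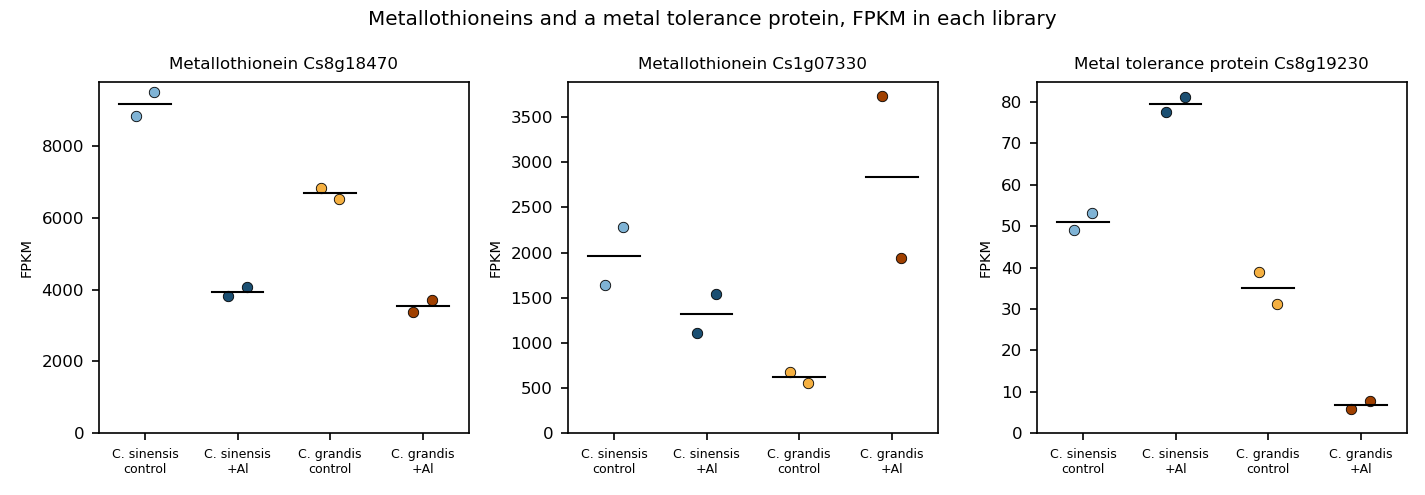
FPKM of the metallothioneins Cs8g18470 and Cs1g07330 and of the metal tolerance protein Cs8g19230 in each library, on linear axes from 0. Points are libraries and lines are means of 2 libraries. Cs8g18470 is lower under +Al in both species, Cs1g07330 is higher under +Al in *C. grandis* only by call, and Cs8g19230 falls in *C. grandis* from 35.1 to 6.79 FPKM on average.

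Metal tolerance proteins carry zinc or manganese out of the cytosol. Cs8g19230, the highest of the 7, had the largest called difference between the species. It fell in *C. grandis* from 38.9 and 31.3 to 5.87 and 7.72 FPKM (log2 fold change -2.36, standard error 0.3, adjusted p = 9.5e-08) and was higher by p, without reaching the fold limit, in *C. sinensis*, at 49.1 and 53.2 against 77.6 and 81.2 FPKM (log2 fold change 0.63, standard error 0.065, adjusted p = 0.0016). Control and +Al libraries did not overlap in either species and lay in opposite order. The other 6 were not called in any comparison. Metal tolerance protein 4 was represented by orange1.1t02053, with a log2 fold change of 0.87 in *C. sinensis* (adjusted p = 0.0046, under the fold limit) and 0.78 in *C. grandis*. The log2 fold changes of its namesake orange1.1t02212 were -0.08 and 0.59. Metal tolerance protein 1 (orange1.1t00574), which moves zinc into the vacuole in *Arabidopsis*, lay between 21.9 and 31.3 FPKM in all 8 libraries. In *C. sinensis*, orange1.1t03930 was at 4.93 and 4.85 FPKM in control and 2.19 and 3.86 FPKM in +Al roots, without overlap and not called (log2 fold change -0.73, standard error 0.28, adjusted p = 0.1). It was listed at 0.14 FPKM or less in *C. grandis* and was not tested there.

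Genes described as heavy metal ATPase, pumps that move copper or zinc across membranes, had no call, 0 of 6 in either species by limma's adjusted p and fold limit. An unadjusted limma p under 0.05 was found for 4 of 6 in *C. sinensis* and 2 of 6 in *C. grandis*. Among all genes it was found for 8922 of 19152 tested and 4931 of 18677 tested. Cadmium/zinc-transporting ATPase 3 (Cs4g03870), a pump that the keywords did not take, fell in both species and is given further on with its limits. The 3 genes described as heavy metal ATPase 5, a copper pump of *Arabidopsis* roots, had log2 fold changes between -0.34 and -0.24 in *C. sinensis* and between 0.03 and 0.75 in *C. grandis*. Heavy metal ATPase 1 (Cs1g22280) was at 19.2 and 17.8 against 14.9 and 16.05 FPKM in *C. sinensis* and 22.6 and 23.1 against 9.90 and 16.6 FPKM in *C. grandis*. The pump with the highest mean level, orange1.1t05823, was uneven within groups, at 74.5 and 12.2 FPKM in control roots of *C. sinensis* and 56.8 and 109 FPKM in those of *C. grandis*.

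The heavy metal domain proteins, 19 genes of metallochaperone type that bind metals through the same domain, had 3 falls among 17 tested in *C. sinensis*, and 1 rise and 1 fall among 16 tested in *C. grandis*. These are 17.6% and 12.5%, where 8.53% and 12.5% of all genes were called. Cs5g03070 fell in *C. sinensis* from 90.1 and 91.01 to 34.3 and 27.1 FPKM (log2 fold change -1.57, standard error 0.12, adjusted p = 0.00059) and was at 106 and 101.4 against 81.3 and 104 FPKM in *C. grandis*. Cs3g18690 fell in *C. sinensis* from 19.3 and 15.3 to 7.38 and 8.32 FPKM (log2 fold change -1.12, standard error 0.14, adjusted p = 0.0032), or -0.96 without control replicate 1, just under the fold limit. It was at 24.2 and 24.3 against 33.6 and 33.6 FPKM in *C. grandis*. The calls of *C. grandis* were on 2 other genes and each was lost without some single libraries. Cs5g01190 rose from 20.7 and 18.6 to 44.9 and 49.3 FPKM (log2 fold change 1.26, standard error 0.27, adjusted p = 0.00066), and was not called without control replicate 1 or 2 (1.33 and 1.18). Cs9g17280, similar to isoprenylated protein 26, fell from 6.83 and 4.82 to 1.36 and 2.39 FPKM (log2 fold change -1.62, standard error 0.43, adjusted p = 0.0058), and was not called without control replicate 1, control replicate 2 or +Al replicate 1 (-1.37, -1.86 and -1.23). The assembled gene XLOC_027092 fell in *C. sinensis* from 2.97 and 3.37 to 0.222 and 1.23 FPKM (log2 fold change -2.32, standard error 0.68, adjusted p = 0.046) and was at 0.217 FPKM or less in *C. grandis*. Its fall was -1.30 without +Al replicate 1 and -3.34 without +Al replicate 2, and its call was lost without control replicate 1 or 2 (-2.41 and -2.23). The highest of the group, Cs9g19170, was at 425 and 435 against 389 and 395 FPKM in *C. sinensis* and 404 and 309 against 218 and 282 FPKM in *C. grandis*, and was not called. Cs8g02620, described like Cs9g17280, stood at 262 and 262 against 166 and 168 FPKM in *C. sinensis*, which passed by p but not by size (log2 fold change -0.65, standard error 0.044, adjusted p = 0.00047), and at 493 and 521 against 487 and 446 FPKM in *C. grandis*. Cs4g16810 ranged from 74.6 to 125.7 FPKM in *C. sinensis* libraries, and in *C. grandis* libraries from 4.84 to 12.3 FPKM, a gap between species that was not tested.

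The keywords also took 3 genes that are not metal carriers. They were 2 genes described as stabilizer of iron transporter SufD, a subunit of the complex that builds iron-sulfur clusters, and neuferricin-like Cs4g03800, of a family that binds heme. None was called by limma, none had an unadjusted p under 0.05 in either species, and their log2 fold changes lay between -0.13 and -0.01 in *C. sinensis* and between -0.37 and 0.49 in *C. grandis*. The higher of the SufD genes, Cs5g16710, stood at 91.9 and 96.7 FPKM in control and 90.3 and 93.4 FPKM in +Al *C. sinensis* roots.

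Whether the species answered differently was tested for each gene on all 8 libraries by subtracting the response of *C. sinensis* from that of *C. grandis* on the log2 scale, and called by limma's adjusted p alone. The response differed for 14 of the 64 members tested, or 21.9%, where 17.6% of all 20158 genes tested were called, so the share of members was close to that of all genes. The response of *C. grandis* was the higher for 11 members and the lower for 3, against 6.27% higher and 11.3% lower among all genes. Of the 14 members, 3 were called in both species, 3 in *C. sinensis* alone, 7 in *C. grandis* alone and 1 in neither. The largest called difference was that of metal tolerance protein Cs8g19230 (difference -2.99, standard error 0.25, adjusted p = 0.00059), next that of metallothionein Cs1g07330 (difference 2.70, standard error 0.44, adjusted p = 0.0063). Among uptake genes, the copper transporters Cs8g19460 (difference 2.09, standard error 0.37, adjusted p = 0.0083) and Cs8g19470 (difference 1.42, standard error 0.35, adjusted p = 0.03) fell less in *C. grandis*, and zinc transporter 5 Cs6g11460 (difference 1.68, standard error 0.38, adjusted p = 0.022) fell in *C. sinensis* alone by call. The heavy metal domain proteins Cs5g01190 (difference 1.86, standard error 0.2, adjusted p = 0.0013), Cs3g18690 (difference 1.59, standard error 0.23, adjusted p = 0.0037) and Cs5g03070 (difference 1.39, standard error 0.23, adjusted p = 0.0062) had higher responses in *C. grandis*. These 3 and Cs8g19230 were the 4 members whose difference was called whichever of the 8 libraries was left out.

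The number of differing members depended strongly on single libraries. It was lower without any 1 of the *C. sinensis* libraries or of the *C. grandis* control libraries, and higher without either *C. grandis* +Al library. The share called among all genes moved in the same direction in each case. After rescaling every library by its median ratio, 21 members differed. The share of all genes called after rescaling is not given here, so the count of 21 has no background. For Cs1g07330 the difference was not called without *C. sinensis* control replicate 2 (2.46, adjusted p = 0.053). For Cs8g19460 and the vacuolar iron transporter Cs3g21230 (difference 1.63, standard error 0.27, adjusted p = 0.0073) it was not called without *C. sinensis* control replicate 1 (2.16 and 1.61) or 2 (2.03 and 1.64). For Cs2g11610, Cs6g11460, Cs7g01770, Cs8g01420, Cs8g02620 and Cs9g17280 it was lost without any 1 of the *C. sinensis* libraries or of the *C. grandis* control libraries, and for Cs8g19470 without any 1 of these but *C. grandis* control replicate 1. Over these losses the difference lay between 1.28 and 1.60 for Cs2g11610, 1.47 and 1.90 for Cs6g11460, 1.05 and 1.20 for FRD3b (Cs7g01770) and 1.11 and 1.65 for Cs8g19470. It lay between -2.29 and -1.98 for Cs8g01420, 0.49 and 0.57 for Cs8g02620 and -2.15 and -1.66 for Cs9g17280. In direction these differences did not turn under any alternative tried.

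**Figure D5:**
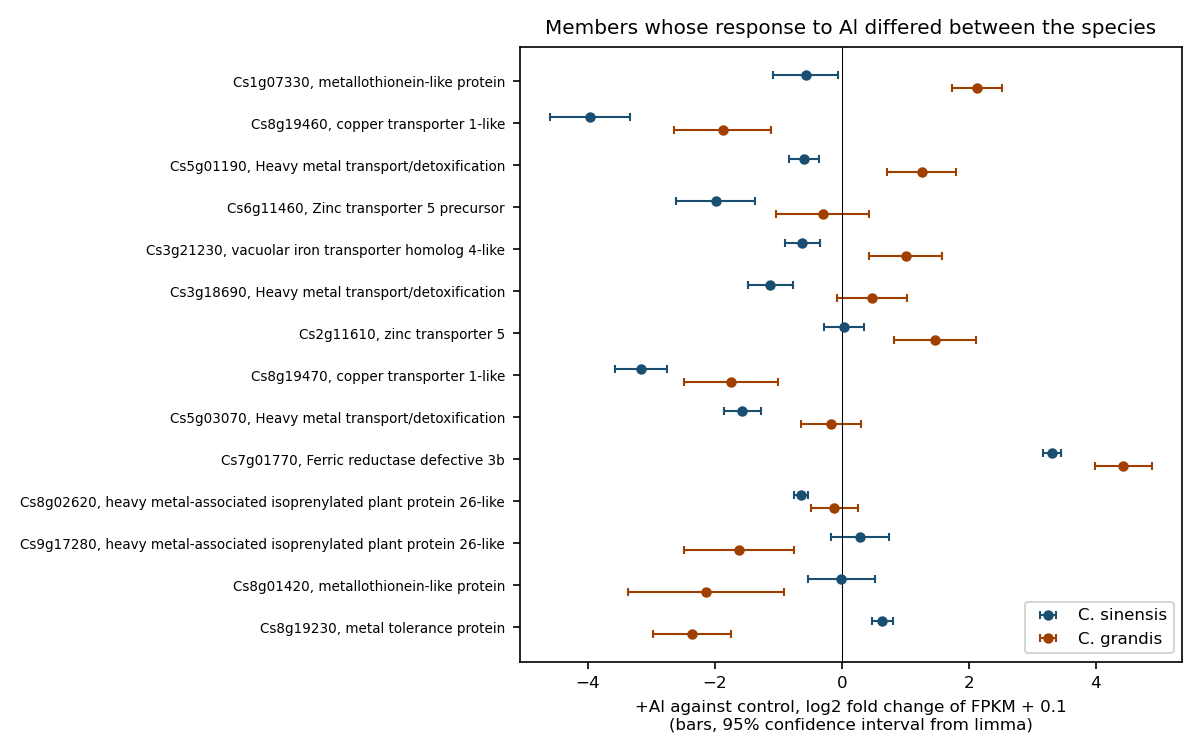
The 14 members whose response to Al differed between the species. Points are log2 fold changes of +Al against control in *C. sinensis* (blue) and *C. grandis* (brown), with 95% confidence intervals from limma within each species. Cs1g07330 is at -0.57 and 2.13 and Cs8g19230 at 0.63 and -2.36, *C. sinensis* before *C. grandis*.

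Other genes of metal handling were taken by further keywords. Of the 31 metal pumps and carriers, 1 rose and 2 fell among 30 tested in *C. sinensis*, and 1 rose and 3 fell among 29 tested in *C. grandis*, with medians of -0.01 and -0.05. These are 10% and 13.8% of the genes tested, close to the 8.53% and 12.5% called among all genes. The response differed between the species for 5 of 30 tested, or 16.7% against 17.6% of all genes. Cadmium/zinc-transporting ATPase 3 (Cs4g03870), a zinc pump, fell beside the zinc transporters, from 9.72 and 10.9 to 2.35 and 1.97 FPKM in *C. sinensis* (log2 fold change -2.21, standard error 0.16, adjusted p = 0.00056) and from 8.23 and 5.83 to 1.45 and 2.70 FPKM in *C. grandis* (log2 fold change -1.76, standard error 0.41, adjusted p = 0.0018). The latter call was lost without control replicate 1, control replicate 2 or +Al replicate 1, where the log2 fold changes were -1.51, -2.0 and -1.33 (adjusted p = 0.28, 0.069 and 0.1). Of the oligopeptide transporters, a family in which some *Arabidopsis* members carry iron or copper, Cs2g01740 rose in both species, from 74.5 and 73.5 to 187 and 196 FPKM in *C. sinensis* (log2 fold change 1.37, standard error 0.051, adjusted p = 0.00014) and from 157 and 159 to 688 and 1069 FPKM in *C. grandis* (log2 fold change 2.44, standard error 0.2, adjusted p = 3.2e-12). Cs3g16870 fell in *C. grandis* from 5.84 and 6.77 to 0.736 and 0.333 FPKM (log2 fold change -3.41, standard error 0.52, adjusted p = 2.8e-06) and was at 5.08 and 5.70 against 3.89 and 4.11 FPKM in *C. sinensis*. XLOC_029822, the Nramp6 gene left out of the members by the rule, fell in *C. grandis* from 19.5 and 17.3 to 7.74 and 10.5 FPKM (log2 fold change -1.02, standard error 0.31, adjusted p = 0.017), a call lost without control replicate 1, control replicate 2 or +Al replicate 1 (-1.11 to -0.81). It may share reads with XLOC_020550.

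The keywords for copper proteins took 41 genes, and some of these may not hold copper. Of 24 tested in *C. sinensis*, 4 rose and 0 fell by limma, with a median log2 fold change of 0.54. At an unadjusted limma p under 0.05, 3 were lower there, as were 4364 of all 19152 genes tested. In *C. grandis* 1 rose and 3 fell of 24 tested, with a median of -0.28. The share called was thus 16.7% in each species, against 8.53% and 12.5% of all genes. The response differed between the species for 13 of 26 copper protein genes tested, or 50% against 17.6% of all genes, and was the lower in *C. grandis* for 10 of them. The count of 13 became lower without any 1 of the *C. sinensis* libraries or of the *C. grandis* control libraries, and higher without either *C. grandis* +Al library. The share called among all genes moved in the same direction in each case. Laccase 3 (Cs8g20850) and laccase-17 (Cs8g17630), copper enzymes that polymerise lignin, rose in *C. sinensis*, from 28.3 and 29.2 to 64.4 and 72.9 FPKM (log2 fold change 1.25, standard error 0.079, adjusted p = 0.0004) and from 5.26 and 6.21 to 15.6 and 14.8 FPKM (log2 fold change 1.39, standard error 0.12, adjusted p = 0.00095). A homolog of L-ascorbate oxidase (Cs8g01960) moved in opposite directions, from 62.2 and 61.9 to 159 and 166 FPKM in *C. sinensis* (log2 fold change 1.39, standard error 0.052, adjusted p = 0.00014) and from 19.2 and 16.1 to 5.05 and 3.91 FPKM in *C. grandis* (log2 fold change -1.96, standard error 0.32, adjusted p = 1.5e-05). Its call in *C. grandis* was lost without control replicate 1 (-1.84). The remaining rise of *C. sinensis* was polyamine oxidase 1 (Cs7g02060), which the keyword took although such enzymes use a flavin. It went from 5.62 and 5.50 to 18.5 and 19.8 FPKM (log2 fold change 1.76, standard error 0.097, adjusted p = 0.00027). Copper amine oxidases moved both ways in *C. grandis*. Primary amine oxidase Cs9g06760 rose from 7.41 and 7.06 to 12.6 and 18.6 FPKM (log2 fold change 1.07, standard error 0.32, adjusted p = 0.015) and Cs5g06000 fell from 26.9 and 24.8 to 9.84 and 15.7 FPKM (log2 fold change -1.05, standard error 0.3, adjusted p = 0.011). The call of Cs9g06760 was lost without control replicate 1, control replicate 2 or +Al replicate 2 (0.79 to 1.11) and that of Cs5g06000 without control replicate 1, control replicate 2 or +Al replicate 1 (-1.11 to -0.72).

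The keywords for iron-deficiency regulation and chelation took 12 genes, of which 8 were tested in each species. They also took S-adenosylmethionine synthetases, and some of the 12 may not serve iron. The FER-like iron deficiency-induced transcription factor (Cs8g15600), which in *Arabidopsis* activates FRO2, rose in *C. grandis* from 16.3 and 13.9 to 42.8 and 52.6 FPKM (log2 fold change 1.65, standard error 0.28, adjusted p = 1.9e-05), while both FRO2 genes fell there. In *C. sinensis* it was at 13.9 and 11.9 against 9.43 and 7.55 FPKM and was not called, and the responses differed between the species (difference 2.25, standard error 0.27, adjusted p = 0.0019). An S-adenosylmethionine synthetase (Cs9g01410), which makes the substrate of nicotianamine synthase, fell in *C. grandis* from 231 and 222 to 102 and 94.9 FPKM (log2 fold change -1.20, standard error 0.22, adjusted p = 5.6e-05), a call lost without control replicate 1 (-1.17). In *C. sinensis* limma called 0 of the 8 tested, against 8.53% of all genes. Of the 8, 3 had an unadjusted limma p under 0.05, as had 8922 of all 19152 genes tested. For *C. grandis* limma called 2 of 8, or 25% against 12.5% of all genes. The response differed between the species for 4 of 8, or 50% against 17.6% of all genes, and was the lower in *C. grandis* for 3. Of 32 genes for iron proteins, 2 fell of 24 tested in *C. sinensis* and 1 rose and 3 fell of 25 tested in *C. grandis*. These are 8.33% and 16.0%, where 8.53% and 12.5% of all genes were called. Their response differed between the species for 3 of 25 tested, or 12% against 17.6% of all genes. A non-photosynthetic ferredoxin (Cs8g14960) fell in *C. grandis* from 463 and 471 to 193 and 212 FPKM (log2 fold change -1.21, standard error 0.2, adjusted p = 9.7e-06) and stood at 299 and 298 against 321 and 342 FPKM in *C. sinensis*. Ferrochelatase-2 (Cs4g18730), which inserts iron into heme, fell in *C. grandis* from 51.2 and 43.7 to 14.8 and 24.8 FPKM (log2 fold change -1.30, standard error 0.28, adjusted p = 0.00079). A ferredoxin-sulfite reductase (Cs2g30390), which holds an iron-sulfur cluster and reduces sulfite, fell from 71.2 and 72.5 to 28.95 and 43.5 FPKM (log2 fold change -1.02, standard error 0.26, adjusted p = 0.0043). The mitochondrial co-chaperone HscB (Cs6g13450), which helps to build iron-sulfur clusters, rose from 2.51 and 2.004 to 4.52 and 6.22 FPKM (log2 fold change 1.21, standard error 0.41, adjusted p = 0.037). The call of Cs8g14960 held whichever *C. grandis* library was left out. That of Cs4g18730 was lost without control replicate 1, control replicate 2 or +Al replicate 1 (-1.41 to -0.93), that of Cs2g30390 without control replicate 1, control replicate 2 or +Al replicate 1 (-1.03 to -0.72) and that of Cs6g13450 without control replicate 1, control replicate 2, +Al replicate 1 or +Al replicate 2 (0.98 to 1.43). Chloroplast ferredoxin I (Cs3g03670) fell in *C. sinensis* from 6.06 and 7.21 to 2.10 and 3.60 FPKM (log2 fold change -1.24, standard error 0.28, adjusted p = 0.021), a call lost without control replicate 1, control replicate 2 or +Al replicate 1 (-1.36 to -0.86).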

How the data were processed

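RNA of root tips was sequenced in 8 libraries, 2 for each of 4 groups. The authors removed poor reads and reads of ribosomal RNA (Bowtie), mapped the rest to the *C. sinensis* genome with TopHat2, assembled transcripts with Cufflinks and deposited FPKM per gene and library. The submitters' processing notes also name edgeR 3.0.0 and R 2.1.5. The genome build and other versions were not given in the sources used here. Columns were assigned to libraries by sample title.

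Members were the genes whose description held 1 of 14 phrases. The members, lists and tests were chosen with earlier results of these data known. FPKM are not counts, so limma 3.58.1 in R 4.3.3, with a trend of spread on expression, was fitted to log2(FPKM + 0.1) over all genes with a group mean of at least 1 FPKM, within each species and, for the difference in response, over all 8 libraries. With this pseudocount, changes of very low genes come out too small. A value of 0 can be a failed estimate and is given as listed at 0. Named are members called in any comparison, the highest member of each group, and called genes of the companion lists at 5 FPKM or more. Other members named were picked after their values were seen. Genes with the same description and neighbouring identifiers may share reads. Figures were drawn with matplotlib 3.10.9 and tables made with pandas 2.3.3 in Python 3.11.15. The fits were tested on simulated data. Alternatives tried were other filters, pseudocounts and fold limits, a spread shared by all libraries, rescaling by median ratios, a block for replicate number, and each library omitted in turn. Rescaling with 1 *C. grandis* +Al library omitted was added after the data were seen. Gene and protein sequences were not used here.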

Additional observations from a re-analysis of the deposited data

Results flagged for a closer look

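The response to Al of 14 members differed between the species by limma's test of the difference on all 8 libraries, as the log2 response of *C. grandis* less the *C. sinensis* response. The difference was 2.70 for metallothionein Cs1g07330, -2.13 for metallothionein Cs8g01420 and -2.99 for metal tolerance protein Cs8g19230. It was 2.09 and 1.42 for copper transporters Cs8g19460 and Cs8g19470, 1.44 and 1.68 for zinc transporters Cs2g11610 and Cs6g11460, 1.63 for vacuolar iron transporter Cs3g21230 and 1.13 for FRD3b (Cs7g01770). Among heavy metal domain proteins it was 1.59 for Cs3g18690, 1.86 for Cs5g01190, 1.39 for Cs5g03070, 0.53 for Cs8g02620 and -1.90 for Cs9g17280.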

How the results depend on the processing

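No call of a single member changed direction under any alternative, and the cause of the changes below was not tested. With a group mean of at least 5 FPKM, 1 member rose and 11 fell in *C. sinensis*, fewer because fewer members were tested. With pseudocount 1, 1 rose in *C. sinensis*. When a log2 fold change of 2 was asked for, *C. sinensis* kept 1 member higher and 9 lower, and *C. grandis* 2 higher and 9 lower. By adjusted p alone, whatever the size of the change, 9 members were higher and 26 lower in *C. sinensis*. The matching share of all genes is not given here. An unadjusted limma p under 0.05 was found there for 48 of 64 members and for 8922 of all 19152 genes tested. With 1 library left out, *C. sinensis* had 1 to 4 members higher and 13 to 19 lower, *C. grandis* 2 to 5 higher and 9 to 14 lower, and 4 to 30 members differed between the species. Joined with rescaling by the median ratio, leaving out *C. grandis* +Al replicate 1 or 2 gave 30 and 26 differing members. For the difference without rescaling, the share called among all genes moved in the same direction as the count of members. With rescaling that share is not given here. These counts are therefore not read as a result about the members. Without *C. grandis* +Al replicate 1 or 2 the median log2 fold change of all genes in that species was 0.19 or -0.20. Rescaling alone kept 19 of 19 calls in *C. sinensis*, 17 of 19 in *C. grandis* and 13 of 14 differences.

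Replicates 1 and 2 share only a number, and their deviations were uncorrelated over 20158 genes (*C. sinensis* r = -0.008, *C. grandis* r = 0.022). With the replicate number as a block, 7 members differed between the species, with 2 higher and 18 lower members in *C. sinensis* and 4 higher and 13 lower members in *C. grandis*. These counts stand without the matching shares of all genes. The weight limma gives to the spread common to all genes, as prior degrees of freedom, was 36.2 for *C. grandis*, 3.17 for *C. grandis* after rescaling, and 3.496 for *C. sinensis*, so p-values of the species are not on equal footing. With 2 libraries a group, small changes can be missed, and a lone library left in a group is assumed to vary like the others.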

Other observations

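Nicotianamine synthase 4 genes stood apart in *C. grandis* +Al replicate 1, the library with the lowest depth. Cs4g03250 was at 28.97 and 2.75 FPKM in +Al replicates 1 and 2, against 12.8 and 15.5 FPKM in control. Cs4g03270 was at 11.7 and 3.14 FPKM in the same +Al libraries and Cs4g03300 at 4.68 and 1.67 FPKM. Metallothionein Cs1g07330 was likewise higher in +Al replicate 1, at 3734 FPKM, than in replicate 2, at 1943 FPKM. Nicotianamine synthase 3 (Cs3g15140) had the other order, at 40.8 and 62.05 FPKM in +Al replicates 1 and 2. The heavy metal ATPase orange1.1t05823 was uneven in *C. sinensis* control, at 74.5 and 12.2 FPKM. These genes were picked after their values were seen.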
